A study of Mus musculus with 4 samples.

Results

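The 33 genes described here encode the machinery of autophagy and the lysosome that completes it, and they were read in Paneth cells and in the other epithelial cells of mouse small-intestinal crypts. They were chosen by symbol among the 27998 genes listed in each library, and all 33 were found. Of these, 21 belong to the autophagy machinery and its regulators: the cargo receptors Sqstm1 and Nbr1, 5 genes of the Atg8 family, 6 of the conjugation enzymes and their partners, 5 genes of initiation and nucleation, the immunity-related GTPase Irgm1 and the transcription factors Tfeb and Tfe3. The other 12 are lysosomal, with 4 membrane proteins and 8 hydrolases or luminal proteins.

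Autophagy wraps cytoplasm in a double membrane and delivers it to the lysosome, where cathepsins and glycosidases break it down. The kinase Ulk1 with Atg13 starts the process, Becn1 and the WIPI proteins mark the forming membrane, and Atg7, Atg3, Atg5, Atg12 and Atg16l1 attach the Atg8 proteins (the LC3 and GABARAP families) to its lipid. mTORC1, which amino acids activate, holds Ulk1 inactive and keeps the transcription factor Tfeb out of the nucleus. Paneth cells pack antimicrobial peptides into secretory granules, and loss of Atg16l1, Atg5 or Atg7 is known to disturb those granules. SLC7A5 imports large neutral amino acids such as leucine.

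The samples were 4 libraries of single live EpCAM+ CD45- cells sorted from enriched crypts of 8-week-old mice. A pair of libraries was labelled slc7a5 fl/fl, from mice with the floxed gene and no Cre, and a pair slc7a5 IEC-KO, from mice in which villin-Cre, active in the intestinal epithelium, deletes the floxed part. The IEC-KO mice carried the same floxed alleles and were age- and sex-matched littermates of the controls, so only Cre set the groups apart by design. The sources name 4 mice but not how they were divided over the libraries, so that p-values measure the spread between libraries, which may be technical. Paneth cells were the cells in which symbols starting with Defa, the alpha-defensins, took 30% or more of the unique molecular identifiers (UMIs, each counting 1 captured RNA molecule), and other cells those with under 20%.

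Libraries held 3217 to 10004 cells and 87922473 to 127094508 UMIs, with 1950 to 2336 Paneth cells and 1178 to 6680 other cells each. Another 2732 of the 26498 cells lay between the limits and entered no comparison. Cells of the libraries labelled IEC-KO were shallower: Paneth cells had a median of 46965 and 52851.5 UMIs in the fl/fl libraries against 13782 and 20159, and the shallowest cell of a library had 8909 and 9670 against 3843 and 5858. Within Paneth cells the alpha-defensin share of UMIs was 41.2% and 44.0% in the fl/fl libraries, above the 36.8% and 37.2% in those labelled IEC-KO. All 8 Paneth markers other than alpha-defensins were higher in Paneth cells than in other cells in both genotypes, and the other cells were largely goblet-like, with 12.5% to 13.6% of their UMIs from 7 goblet markers. Among the other cells, the summed level of the 6 cycling markers was lower in the libraries labelled IEC-KO (333 and 350 counts per 1000000 UMIs, CPM, against 706 and 705). That of the 7 enterocyte markers was lower too (2643 and 2356, against 4438 and 4832), while that of the 6 enteroendocrine markers was higher (1669 and 1482, against 763 and 640, with 4 of the 6 called higher), as were 3 of 6 tuft markers, so that both genotype and cell make-up differ in that class. At most 132 cell barcodes were shared by any pair of libraries.

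Slc7a5, the targeted gene, was counted higher, not lower, in the libraries labelled IEC-KO. In Paneth cells it had 91 and 84 UMIs in the fl/fl libraries and 128 and 252 in those labelled IEC-KO, or 1.10 ± 0.08 and 3.58 ± 0.22 CPM after TMM scaling (SD, n = 2), a log2 difference of 1.71 ± 0.15 (SE, adjusted p = 5.3e-09). In other cells it had 47 and 43 against 176 and 268 UMIs, a log2 difference of 0.81 ± 0.17 (adjusted p = 0.0011). That call in other cells was lost when cells were thinned to 3500 UMIs. It was also lost among cells with under 5% of their UMIs from goblet genes. Over the alternatives the values in other cells lay between 0.29 and 1.11. Paneth cells were 55.6% and 60.6% of the cells of the fl/fl libraries and 20.2% and 24.2% of those labelled IEC-KO, shares that the sort and the class limits also set. Reads from the 3′ end of the transcript do not show whether the floxed part was deleted, so the gene cannot serve as a check here, and the groups are called the libraries labelled fl/fl and IEC-KO throughout.

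Of the 33 genes, 27 matched a RefSeq promoter entry (build GRCm38.p6), read here from 250 bases before to 30 bases after the transcript start. The windows were searched on both strands for TCACGTGA, the palindrome within the CLEAR element that Tfeb and Tfe3 are known to bind, and for the shorter TCACGTG and CACGTG that lie inside it. The palindrome was in the windows of Atg3, Ctsa, Ctsd and Mcoln1 and in 0.931% of 32851 promoters of all genes. TCACGTG was in 6 of the genes (Atg7 and Lamp1 in addition) and 3.62% of all promoters, and CACGTG in 8 (Atg5 and Ctsl in addition) and 6.79%. The windows of Atg7, Sqstm1 and Ctsl follow because these 3 genes had the largest differences between the genotypes, and those of Ctsd and Mcoln1 because they hold the palindrome. Capitals mark every CACGTG, with the T before it or the A after it where present. The windows of Atg7 and Ctsl lie wholly inside the genes as GENCODE annotates them (chr6:114643097-114860614 and chr13:64359337-64370890, GRCm38). The palindromes of Ctsd and Mcoln1 also lie inside the annotated genes (chr7:142375911-142388038 and chr8:3500457-3515232).
Atg7 promoter, chr6:114670846-114671125, plus strand: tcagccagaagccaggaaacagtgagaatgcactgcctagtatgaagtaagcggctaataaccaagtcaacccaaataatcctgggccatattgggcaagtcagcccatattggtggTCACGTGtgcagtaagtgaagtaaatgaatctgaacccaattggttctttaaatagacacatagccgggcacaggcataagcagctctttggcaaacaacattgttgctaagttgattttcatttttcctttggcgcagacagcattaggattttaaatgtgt
Sqstm1 promoter, chr11:50210791-50211070, minus strand: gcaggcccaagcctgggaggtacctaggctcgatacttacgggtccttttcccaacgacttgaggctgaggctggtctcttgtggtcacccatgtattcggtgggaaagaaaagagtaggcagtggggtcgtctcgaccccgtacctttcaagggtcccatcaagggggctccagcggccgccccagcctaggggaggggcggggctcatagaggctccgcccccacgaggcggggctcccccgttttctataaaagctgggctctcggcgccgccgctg
Ctsl promoter, chr13:64370491-64370770, minus strand: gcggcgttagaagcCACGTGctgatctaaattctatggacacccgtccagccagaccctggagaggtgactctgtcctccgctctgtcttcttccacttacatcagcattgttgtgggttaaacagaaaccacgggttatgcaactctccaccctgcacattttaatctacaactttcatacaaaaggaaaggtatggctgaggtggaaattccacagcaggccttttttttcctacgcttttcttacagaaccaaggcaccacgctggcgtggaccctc
Ctsd promoter, chr7:142387798-142388077, minus strand: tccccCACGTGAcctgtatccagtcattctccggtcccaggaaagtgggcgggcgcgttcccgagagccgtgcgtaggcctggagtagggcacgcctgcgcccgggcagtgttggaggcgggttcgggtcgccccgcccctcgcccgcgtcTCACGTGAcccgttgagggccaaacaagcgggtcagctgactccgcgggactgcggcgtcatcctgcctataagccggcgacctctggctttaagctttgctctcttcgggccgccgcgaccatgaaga
Mcoln1 promoter, chr8:3500269-3500548, plus strand: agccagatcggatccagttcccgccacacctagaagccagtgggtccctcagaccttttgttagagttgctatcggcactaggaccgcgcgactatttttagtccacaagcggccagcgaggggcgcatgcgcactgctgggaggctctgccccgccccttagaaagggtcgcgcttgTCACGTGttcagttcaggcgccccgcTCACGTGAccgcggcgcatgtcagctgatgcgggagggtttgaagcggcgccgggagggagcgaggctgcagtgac
Such a match is a description of letters, not of binding. Sqstm1 had none in this window and Ctsl had only the shortest. The part of these motifs in the differences between the genotypes was not tested.

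In Paneth cells, 8 of the 33 genes were higher in the libraries labelled IEC-KO and Atg7 alone was lower, while 24 passed no threshold. The background was 20.2% of 12492 genes tested called higher and 19.8% called lower, so that a count of 8 is near the background for genes that rose and a count of 1 below it for genes that fell. The median log2 difference of the 33 was 0.02, against 0.00 over all genes tested. The autophagy machinery gave 5 genes higher and 1 lower of 21 and the lysosomal genes 3 higher and 0 lower of 12 (edgeR; 1 lower at an unadjusted p under 0.05, and 0 with DESeq2). Without fl/fl replicate 1 the count of genes higher was 5, and without IEC-KO replicate 1 or 2 the count lower was 2. In other cells 10 genes were higher, 0 lower and 23 neither (edgeR; 2 lower at an unadjusted p under 0.05, 0 lower with DESeq2, and 1 lower without IEC-KO replicate 1), with a background of 17.0% higher and 16.7% lower among 12377 genes and a median of 0.07, and there the machinery gave 7 of 21 and the lysosomal genes 3 of 12. Sqstm1, Ctsl, Map1lc3a, Gabarapl1, Hexa and Wipi2 were the 6 genes higher in both classes, and 20 were called in neither. All 33 had enough counts to be tested in both classes. Differences are relative to the median of all genes (TMM scaling). Alpha-defensins took 36.8% to 44.0% of the UMIs of Paneth cells. With total UMIs alone as the scale the median of all genes in Paneth cells shifted by 0.62. Then 32 of the 33 genes were called higher, with Atg7 still lower, as were 8795 of 12492 genes tested. Without alpha-defensin UMIs in the scale the shift was still 0.49, with 29 of the 33 genes and 7711 of 12510 genes tested called higher.

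**Figure D1:**
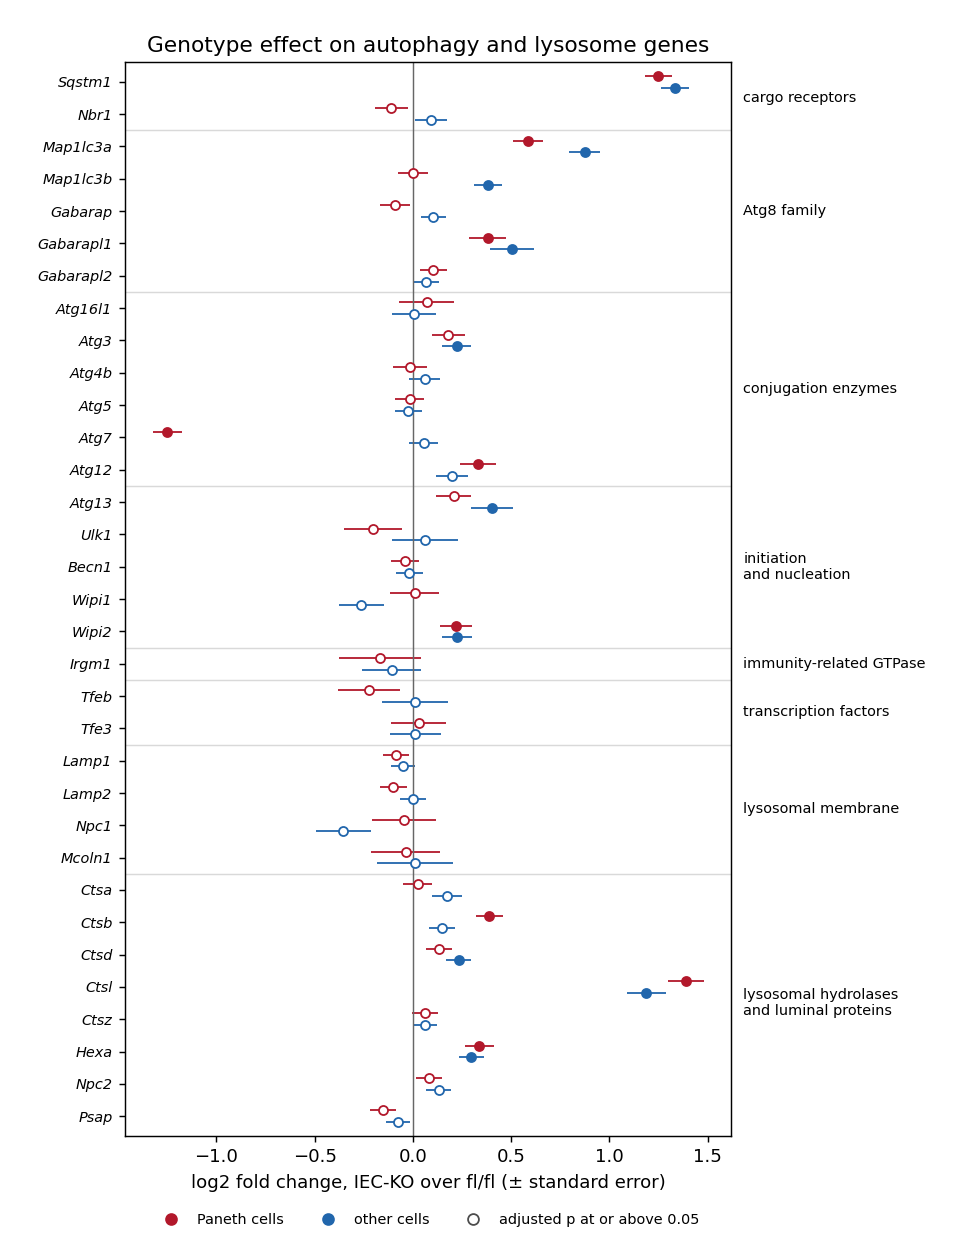
Log2 fold change of each of the 33 genes, libraries labelled IEC-KO over fl/fl, in Paneth cells (red) and other cells (blue); points are edgeR estimates, bars 1 standard error, filled points have an adjusted p under 0.05, and rows are grouped by role. Sqstm1 and Ctsl lie beyond 1 in both classes, and Atg7 at -1.25 in Paneth cells and 0.05 in other cells.

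Sqstm1 encodes p62, the receptor that binds ubiquitinated cargo and is itself degraded by autophagy. In Paneth cells it was at 16.3 and 16.6 CPM (TMM-scaled within the class, as all levels of single genes below unless said otherwise) in the fl/fl libraries and at 40.8 and 37.5 in those labelled IEC-KO. In other cells the levels were 24.7 and 26.4 against 63.5 and 65.0 CPM. Both IEC-KO libraries were far above both fl/fl libraries in each class, with no overlap. The log2 differences of 1.25 ± 0.07 (adjusted p = 5.4e-12) and 1.33 ± 0.07 (adjusted p = 2.3e-11) were 2.38-fold and 2.52-fold, and they did not differ between the classes beyond their error (-0.08 ± 0.08, adjusted p = 0.50). The difference in Paneth cells lay between 1.01 and 1.31 over the alternatives that scale to the median of genes. Nbr1, the other cargo receptor on the list, showed no such difference (-0.11 ± 0.08 and 0.09 ± 0.08, adjusted p = 0.32 and 0.43). The 3′ end of Sqstm1 lies under Mrnip on the opposite strand, and the sources used here do not say whether strand was used in counting.

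The Atg8 family moved unevenly. Map1lc3a, which encodes LC3A, was at 15.3 and 16.1 CPM in Paneth cells of the fl/fl libraries and at 25.1 and 22.3 CPM in those labelled IEC-KO, and in other cells at 18.9 and 21.2 against 37.9 and 35.3. The groups were apart in both classes, by 0.59 ± 0.07 (adjusted p = 1.5e-06) and 0.87 ± 0.08 (adjusted p = 4.6e-08) on the log2 scale. Gabarapl1, a GABARAP relative, was also higher in both: 5.24 and 4.76 against 6.18 and 6.74 CPM in Paneth cells (0.38 ± 0.09, adjusted p = 0.0028) and 7.39 and 6.93 against 9.58 and 10.7 CPM in other cells (0.50 ± 0.11, adjusted p = 0.0016). The gap between the groups was wider than the spread within either pair. The calls were lost in cells thinned to 3500 UMIs (0.16 in Paneth cells, adjusted p = 0.68, and 0.31 in other cells, adjusted p = 0.26), in Paneth cells also with class limits narrowed to alpha-defensin shares of 40% to 60% (0.36, adjusted p = 0.093) and in other cells among those with 1% or more of their UMIs from goblet genes (0.33, adjusted p = 0.067). Map1lc3b, which encodes the LC3B most often used to follow autophagosomes, was higher only among the other cells, at 124 and 116 against 166 and 147 CPM (0.38 ± 0.07, adjusted p = 2.9e-04). In Paneth cells its 64.4 and 61.7 CPM in the fl/fl libraries lay between the 69.0 and 57.4 of those labelled IEC-KO (0.00 ± 0.08, adjusted p = 1.0). The 3′ end of Map1lc3b is shared with Gm20388 on the same strand, so that its count is uncertain. Gabarap and Gabarapl2 passed the threshold in neither class.

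The genotype effect differed between the classes for 5 of the 33 genes (background 11.0% higher and 11.2% lower of 13039 genes). For 3 Atg8 genes the effect was smaller in Paneth cells: Map1lc3b by -0.38 ± 0.06 (adjusted p = 3.4e-08), Map1lc3a by -0.28 ± 0.08 (adjusted p = 0.0061) and Gabarap by -0.19 ± 0.06 (adjusted p = 0.013), although each turned positive (0.38, 0.48 and 0.57) when total UMIs alone set the scale. The calls of 2 of them rested on single libraries. That of Map1lc3a was lost without fl/fl replicate 1 (-0.23) or IEC-KO replicate 2 (-0.24), and that of Gabarap without fl/fl replicate 1 (-0.20), fl/fl replicate 2 (-0.18) or IEC-KO replicate 2 (-0.15). The fourth was Atg7 and the fifth Ctsb, which are taken up with their groups.

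Atg7 encodes the E1-like enzyme that activates both Atg12 and the Atg8 proteins, and it was the 1 gene of the 33 to fall in Paneth cells. It stood at 20.8 and 21.7 CPM in the fl/fl libraries and at 9.18 and 8.78 CPM in those labelled IEC-KO. In other cells it was at 19.4 and 18.8 against 20.2 and 19.5 CPM. The Paneth cell values were far apart and the others nearly level. The fall of 1.25 ± 0.08 (adjusted p = 2.1e-11) in Paneth cells was 2.38-fold, the difference in other cells was 0.05 ± 0.08 (adjusted p = 0.63), and the effects differed by -1.29 ± 0.09 (adjusted p = 5.3e-28). As UMIs per cell, Paneth cells held 0.812 and 0.900 Atg7 UMIs in the fl/fl libraries and 0.170 and 0.254 in those labelled IEC-KO, a gap that includes the lower depth of the latter. The fall kept its direction and its call under all 14 alternatives, at -0.63 with total UMIs as the scale, at -0.76 without alpha-defensin UMIs and between -1.21 and -1.29 otherwise. Cells thinned to 3500 UMIs gave -1.22, and leaving out each library in turn gave -1.21 to -1.29. Falls of this size were not particular to Atg7 in these cells: all 7 enterocyte markers were lower in the same sums, by -1.04 to -1.69 (median -1.32), as were 5 of 6 cycling markers, 5 of 6 tuft markers and 4 of the 8 Paneth markers other than alpha-defensins (3 were higher). Their part in the fall of Atg7 was not tested.

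**Figure D2:**
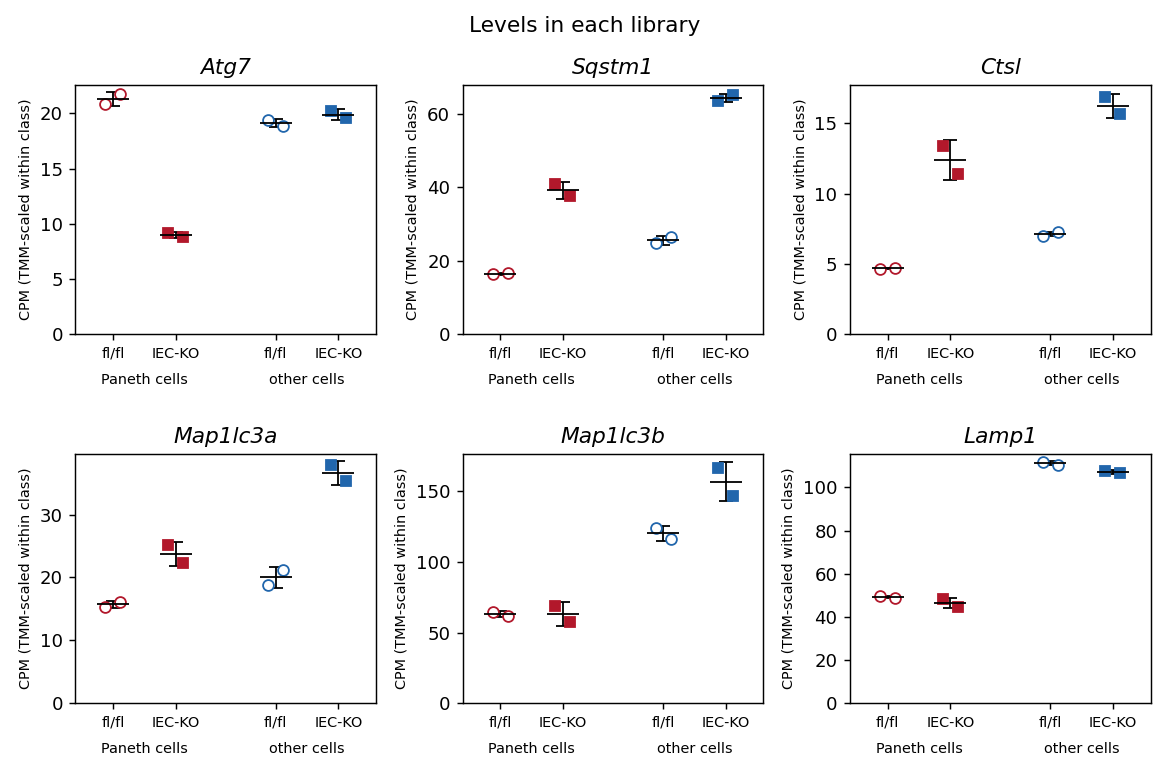
CPM (TMM-scaled within the class) of 6 of the genes in each library; open circles are fl/fl and filled squares IEC-KO libraries, red Paneth cells and blue other cells, with the mean (horizontal line) and SD (n = 2). Atg7 is lower in Paneth cells of the IEC-KO libraries, Sqstm1, Ctsl and Map1lc3a are higher in both classes, Map1lc3b is higher in other cells, and Lamp1 hardly moves.

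Since the alpha-defensin share differed between the genotypes, the levels were also read in cells of like share, as CPM of the UMIs that were not alpha-defensins. Among cells with 40% to 45%, Atg7 was at 29.1 and 30.7 in the fl/fl libraries and at 20.1 and 15.4 in those labelled IEC-KO. Among cells with 30% to 35% it was at 21.4 and 27.1 against 18.1 and 18.8, and among cells under 10% at 20.6 and 19.8 against 19.0 and 18.8. The gap was thus widest among cells rich in alpha-defensins, and on this scale the median of all genes in Paneth cells was itself shifted upwards by 0.49 (log2) in the libraries labelled IEC-KO. Sqstm1 showed the opposite order throughout, with 22.9 and 22.7 against 69.2 and 59.8 at 40% to 45% and 27.7 and 28.0 against 60.5 and 64.0 under 10%. Ctsl had 6.7 and 6.4 against 19.8 and 17.8 at 40% to 45%.

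**Figure D3:**
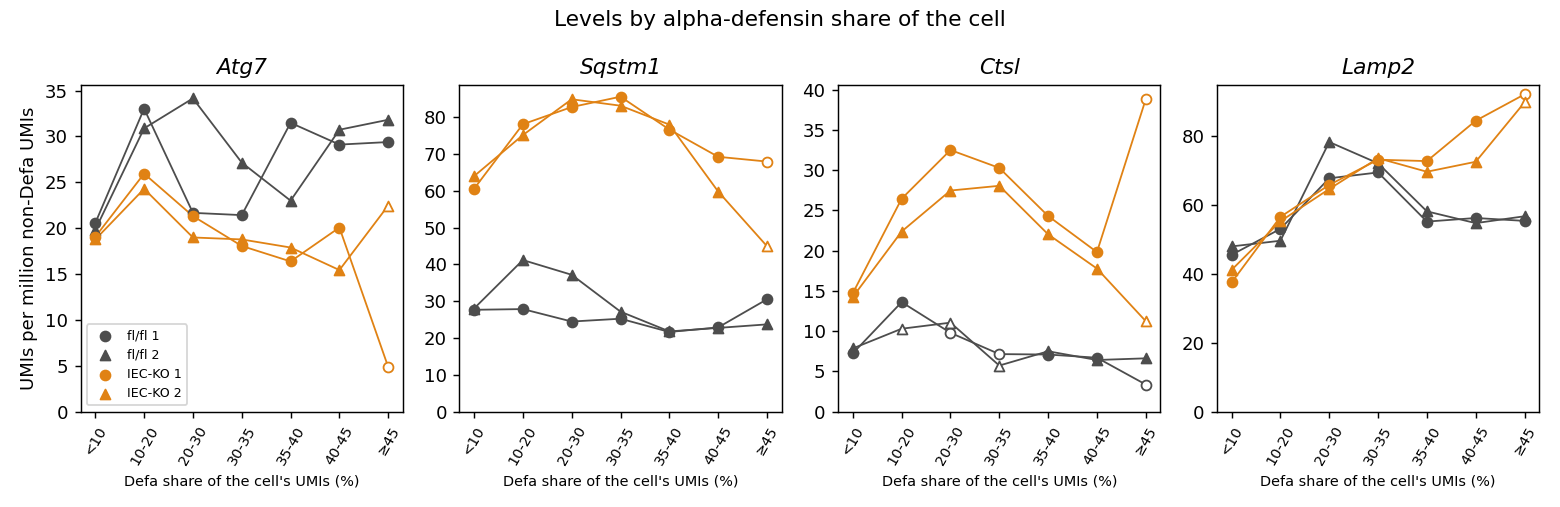
Levels of Atg7, Sqstm1, Ctsl and Lamp2 as CPM of the UMIs that are not alpha-defensins, against the share of alpha-defensins in the cell (%), for each library; grey is fl/fl, orange IEC-KO, and open symbols rest on under 20 UMIs of the gene. In the bins from 30% to 45% Atg7 is higher in both fl/fl libraries, and in every bin Sqstm1 and Ctsl are higher in both IEC-KO libraries.

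Of the other conjugation genes, Atg12, the ubiquitin-like partner of Atg5, was higher in Paneth cells, with 4.89 and 5.31 against 6.37 and 6.47 CPM (0.33 ± 0.09, adjusted p = 0.0062). In other cells it was at 16.2 and 17.4 against 18.6 and 19.8 CPM, which missed the threshold (0.20 ± 0.08, adjusted p = 0.063). Atg3, the E2-like enzyme that acts after Atg7, was at 30.6 and 27.2 against 34.7 and 33.02 CPM in other cells (0.22 ± 0.07, adjusted p = 0.026) and at 9.64 and 9.20 against 11.6 and 9.93 in Paneth cells (0.18 ± 0.09, adjusted p = 0.099). The Atg12 call in Paneth cells was lost with DESeq2, in thinned cells and without fl/fl replicate 1 (0.27), while without IEC-KO replicate 1 the gene was called in other cells (0.24). The Atg3 call in other cells was lost with DESeq2, in thinned cells and without fl/fl replicate 2 (0.13), and without IEC-KO replicate 2 the gene was called in Paneth cells (0.31). Atg5, Atg16l1 and the protease Atg4b, which primes the Atg8 proteins, passed the threshold in neither class, with log2 differences between -0.02 and 0.07.

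The initiation genes moved little. Atg13, the adaptor of Ulk1, was at 8.77 and 11.4 against 12.6 and 13.8 CPM in other cells, groups that were apart by less than the spread within the fl/fl pair (0.40 ± 0.11, adjusted p = 0.0073). Its call was lost with DESeq2 (adjusted p = 0.073) and without fl/fl replicate 1 (0.21). Wipi2, which binds the lipid of the forming membrane and recruits Atg16l1, was at 9.78 and 9.35 against 10.5 and 11.7 CPM in Paneth cells (0.22 ± 0.08, adjusted p = 0.035) and at 18.6 and 19.8 against 22.1 and 22.7 in other cells (0.22 ± 0.08, adjusted p = 0.028). These calls were lost with DESeq2 (adjusted p = 0.20 and 0.21) and without fl/fl replicate 1 (0.24 in Paneth and 0.18 in other cells), fl/fl replicate 2 (0.18 and 0.25) or IEC-KO replicate 2 (0.13 and 0.21). Becn1, the core of the nucleation complex, showed no detectable difference (-0.04 ± 0.07 and -0.02 ± 0.07), and neither Ulk1 nor Wipi1 passed the threshold. Irgm1, a GTPase of the interferon response, was at 37 to 122 UMIs in Paneth cells and also passed none.

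The transcription factors of the lysosomal programme were not called. Tfeb was at 1.84 and 1.82 against 1.47 and 1.63 CPM in Paneth cells (-0.22 ± 0.16, adjusted p = 0.28) and showed a difference of 0.01 ± 0.17 in other cells, and Tfe3 differed by 0.03 ± 0.14 and 0.01 ± 0.13. Tfeb had only 55 to 147 UMIs per library in Paneth cells, and the size of difference that could be detected for it was not tested. RNA levels carry no information on where these proteins were in the cell.

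Of the 12 lysosomal genes, 0 of 4 membrane genes and, of 8 hydrolases and luminal genes, 3 in Paneth cells and 3 in other cells were called higher. Lamp1, the abundant membrane glycoprotein, was at 49.5 and 48.9 against 48.1 and 44.7 CPM in Paneth cells and at 112 and 110 against 108 and 107 CPM in other cells. These values were nearly level and passed no threshold (-0.09 ± 0.07 and -0.05 ± 0.06, adjusted p = 0.33 and 0.56). Lamp2, the cholesterol transporter Npc1 and the calcium channel Mcoln1 were called in neither class, so that no membrane gene of the 4 passed in edgeR's main fit (0 in Paneth cells and 1 in other cells at an unadjusted p under 0.05, and 0 with DESeq2 at either p). The value farthest from 0 was that of Npc1 in other cells (-0.35 ± 0.14, adjusted p = 0.057).

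Ctsl, the cysteine protease cathepsin L, had the largest rise of the 33 genes in Paneth cells. It was at 4.66 and 4.72 CPM in the fl/fl libraries and 13.4 and 11.4 CPM in those labelled IEC-KO there, and at 7.01 and 7.25 against 16.9 and 15.7 CPM in other cells. The groups were apart by more than the spread within either pair. The rises of 1.39 ± 0.09 (adjusted p = 7.8e-11) and 1.19 ± 0.10 (adjusted p = 1.7e-08) were 2.62-fold and 2.28-fold, and their difference was 0.21 ± 0.13 (adjusted p = 0.25). Ctsl, like Sqstm1, kept its call in Paneth cells under all 14 alternatives.

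Hexa, the alpha subunit of hexosaminidase, rose less and in both classes: 24.4 and 27.4 against 33.9 and 31.7 CPM in Paneth cells (0.34 ± 0.07, adjusted p = 7.4e-04) and 62.5 and 61.3 against 76.8 and 75.4 CPM in other cells (0.30 ± 0.06, adjusted p = 0.0012). Its call in Paneth cells was lost without fl/fl replicate 1 (0.25) and with the narrower class limits (0.17, adjusted p = 0.14). Ctsb, cathepsin B, was at 35.1 and 36.0 against 48.6 and 44.6 CPM in Paneth cells (0.39 ± 0.07, adjusted p = 9.8e-05) and at 96.3 and 93.0 against 109 and 101 in other cells (0.15 ± 0.07, adjusted p = 0.090). It was the 1 gene of the list whose effect was called larger in Paneth cells, by 0.25 ± 0.06 (edgeR, adjusted p = 5.8e-04). That call was lost with DESeq2, in thinned cells, in cells with at least 10000 UMIs, with the narrower class limits and without fl/fl replicate 1 (0.20). In other cells Ctsb was called higher among cells with goblet genes from 1% and from 5% of UMIs, and without IEC-KO replicate 2 (0.20). Its values in other cells lay between -0.11 and 0.38 over the alternatives. Ctsd, the aspartic protease cathepsin D, was called in other cells only, with 63.3 and 61.1 against 72.1 and 74.1 CPM (0.23 ± 0.06, adjusted p = 0.0082), and was at 0.13 ± 0.07 in Paneth cells (adjusted p = 0.12), while the difference between the classes did not pass the threshold (-0.10 ± 0.06, adjusted p = 0.30). The call of Ctsd in other cells was lost among cells with 1% or more of UMIs from goblet genes (0.15, adjusted p = 0.14) and without fl/fl replicate 1 (0.25) or fl/fl replicate 2 (0.20). Ctsa, Ctsz, the sterol carrier Npc2 and the saposin precursor Psap were called in neither class, with values between -0.15 and 0.17. The 3′ end of Ctsd is shared with Gm49369 on the same strand, and those of Ctsb and Ctsa lie under genes of the opposite strand.

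Cell type markers and genes of a dissociation-stress list also differed between the genotypes. The summed level of 10 dissociation-stress genes, all 10 detected, was 59.1 and 54.3 CPM of all UMIs in Paneth cells of the fl/fl libraries and 109.6 and 111.1 in those labelled IEC-KO, and 202 and 193 against 225 and 228 in other cells. On that scale the median of all genes in Paneth cells was itself shifted by 0.62 (log2), and with TMM scaling 7 of the 10 were higher and 2 lower, with a median of 0.35. Their part in the rise of Sqstm1 was not tested. The summed enterocyte markers in Paneth cells were at 1197 and 1134 against 641 and 732 CPM of all UMIs, and the tuft markers at 25.8 and 24.02 against 25.0 and 28.2, although 5 of the 6 were lower with TMM scaling. Macrophage markers matter because those cells are rich in cathepsins. The sum of 8 was lower in Paneth cells of the libraries labelled IEC-KO, at 17.7 and 14.6 against 39.3 and 30.9 CPM, and most of this was Lyz2. Without Lyz2 the sum was 69 and 119 against 242 and 224 UMIs, out of 30793974 and 53460665 against 94430487 and 103305352. Relative to these totals, the libraries labelled IEC-KO then lay between the fl/fl libraries. With TMM scaling 3 of the 5 macrophage markers tested were lower and 0 higher. Their part in the cathepsin differences was not tested. The 6 lymphocyte markers gave at most 25 UMIs in any library and class, and 1 to 4 of them were at 0. When other cells were split at 5% of UMIs from 5 goblet genes, a limit chosen after the data were seen, the log2 rise of Sqstm1 was 1.34 at or above it and 1.30 below, and that of Ctsl 1.26 and 1.12. Below a limit of 1%, where only 58 cells of IEC-KO replicate 2 were left, the values fell to 0.37 and 0.64 and no member was called. Atg7 in other cells was at -0.21 and 0.31 on the 2 sides of the 5% limit, the latter called higher (adjusted p = 0.026).

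Relative to the median of all genes (TMM scaling), most of the 33 genes were higher in Paneth cells than in other cells of the same libraries. In the fl/fl libraries 25 were higher and 2 lower in Paneth cells, with a background of 27.7% higher and 30.7% lower, a median of 0.32 and a median of -0.02 over all genes. In the libraries labelled IEC-KO 26 were higher and 2 lower, with a background of 24.7% and 25.5% and a median of 0.34. These counts are from edgeR, and with DESeq2 19 were higher and 0 lower in each genotype. Of 13039 genes tested, DESeq2 called 2181 higher and 2471 lower in fl/fl and 1488 higher and 1809 lower in IEC-KO. With total UMIs as the scale the median of all genes shifted by -1.94 and -1.17, and the counts turned to 0 higher and 33 lower and to 1 higher and 31 lower. Of 13039 genes tested, 12063 and 11790 were then lower. Without alpha-defensin UMIs in the scale the medians were still -1.23 and -0.59. The counts were then 2 higher and 28 lower in fl/fl and 5 higher and 20 lower in IEC-KO, with 11032 and 9538 of 12963 genes tested lower. The directions above thus hold only relative to the other genes. Each class difference was fitted within libraries, which hold both classes. A higher level in Paneth cells on the TMM scale was not particular to these genes. In the fl/fl libraries all 6 enteroendocrine markers (median 1.62) and all 6 tuft markers (median 1.18) were also called higher there. In the libraries labelled IEC-KO 5 of 6 and 3 of 6 were, while all 6 cycling markers were lower in both genotypes.

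Atg7 had the largest such difference in the fl/fl libraries, 1.70 ± 0.06 (adjusted p = 1.5e-60), and only 0.41 ± 0.06 (adjusted p = 1.5e-08) in those labelled IEC-KO. With total UMIs as the scale these were -0.23 and -0.76, and the gap between the genotypes stood on both scales. Lamp2, the second, was 1.47 ± 0.05 and 1.37 ± 0.05, hardly altered by genotype, but -0.45 and 0.21 with total UMIs. Map1lc3a gave 1.20 ± 0.06 and 0.92 ± 0.05 (-0.73 and -0.25 with total UMIs). Irgm1 was lower in Paneth cells in both genotypes, by -0.57 ± 0.15 and -0.63 ± 0.14, and on both scales. Its call was lost with DESeq2 in both genotypes, in thinned cells in fl/fl, and with the narrower class limits in IEC-KO. With edgeR all 8 hydrolases and luminal genes and all 5 Atg8 genes were called higher in Paneth cells in both genotypes. Of the 6 conjugation genes 2 were higher, 1 was lower and 3 passed no threshold in each. With DESeq2 9 lysosomal genes were called higher in each genotype, 2 of them membrane genes, against 11 and 3 with edgeR. Not all 8 hydrolases and luminal genes thus kept their call with DESeq2.

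**Figure D4:**
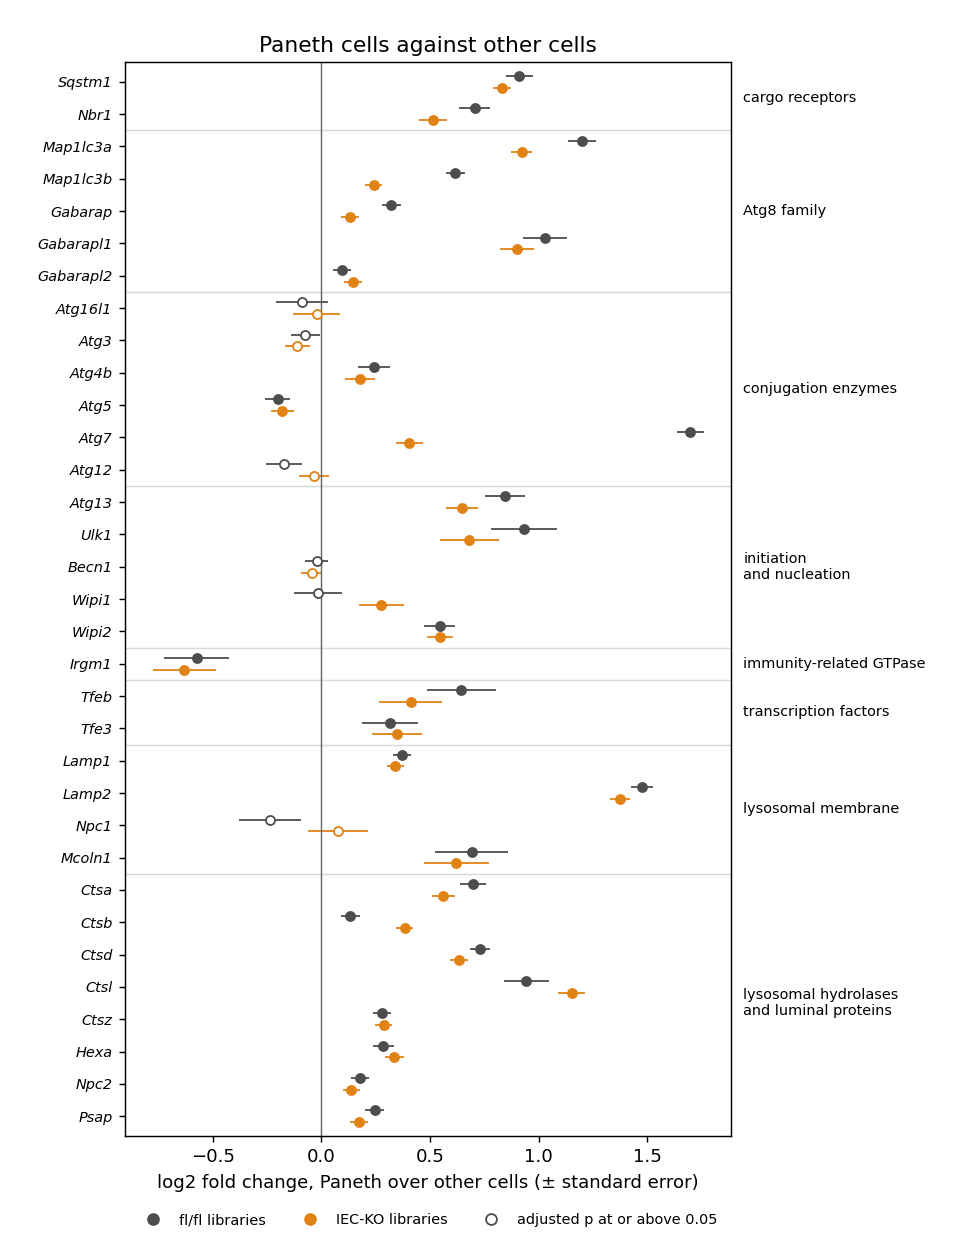
Log2 fold change of each gene, Paneth cells over other cells of the same libraries, in fl/fl (grey) and IEC-KO (orange) libraries; points are edgeR estimates relative to the median of all genes (TMM), bars 1 standard error, filled points have an adjusted p under 0.05. Atg7 falls from 1.70 to 0.41 between the genotypes; with total UMIs as the scale nearly all points lie below 0.

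Further genes of the same pathways were read as counts per list. Of 39 other autophagy genes, 8 were higher and 8 lower in Paneth cells of the libraries labelled IEC-KO and 8 higher and 4 lower in other cells, against backgrounds of 20.2% higher and 19.8% lower in Paneth cells and 17.0% and 16.7% in other cells. Bnip3, a mitophagy receptor, rose in both (0.75 ± 0.16 and 0.90 ± 0.20), as did Vmp1 in Paneth cells (0.49 ± 0.07) and Atg14, the Becn1 partner, in other cells (0.69 ± 0.20). The receptor Optn (-0.62 ± 0.11) and Pik3r4, of the lipid kinase complex (-0.49 ± 0.15), were lower in Paneth cells, and the kinase Tbk1 (-0.49 ± 0.12) and Tmem41b (-0.30 ± 0.07) in other cells. With total UMIs as the scale Optn and Pik3r4 turned to 0.0023 and 0.13. The calls lost without 1 library were those of Pik3r4 (-0.39 without fl/fl replicate 1 and -0.40 without IEC-KO replicate 1), Atg14 (0.67 without fl/fl replicate 1 and 0.47 without IEC-KO replicate 2) and Tbk1 (-0.41 without fl/fl replicate 1). With DESeq2 those of Pik3r4 (adjusted p = 0.095) and Atg14 (adjusted p = 0.088) were lost too. In thinned cells the calls of Optn, Atg14 and Tmem41b were lost. With the narrower class limits those of Optn, Pik3r4 and Bnip3 in Paneth cells were lost. In other cells those of Bnip3 and Tmem41b were lost among cells with 5% or more of UMIs from goblet genes, and that of Atg14 under 5%.

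Among 38 further lysosomal enzymes tested, 7 were higher and 9 lower in Paneth cells, and 7 higher and 5 lower in other cells, shares near the same backgrounds (20.2% and 19.8%, and 17.0% and 16.7%). Ctsc, cathepsin C, went from 5.61 ± 0.02 to 19.0 ± 0.26 CPM (mean ± SD, n = 2) in Paneth cells (1.76 ± 0.08) and rose in other cells too (1.04 ± 0.08). Glb1, beta-galactosidase, rose in Paneth cells (0.96 ± 0.07), and Lgmn, the asparaginyl protease legumain, in other cells (1.42 ± 0.07). Ctss, cathepsin S, went the other way in both (-1.38 ± 0.13 and -0.88 ± 0.09), as did Gm2a, a lipid-binding activator (-0.99 ± 0.29 and -0.81 ± 0.23). The call of Gm2a was lost without fl/fl replicate 1 (-0.85 in Paneth and -0.79 in other cells) and, in Paneth cells, without IEC-KO replicate 2 (-0.97), and in both classes with DESeq2 (adjusted p = 0.098 and 0.11). Ctsc, Glb1, Lgmn and Ctss kept their calls without any 1 library. In other cells the call of Ctss was lost among cells with 1% or more of UMIs from goblet genes. Below 1% those of Ctss and Ctsc were lost. The values of Ctss in other cells lay between -1.03 and -0.18 over the alternatives. The call of Gm2a was also lost in Paneth cells with the narrower class limits and in other cells after thinning.

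The vacuolar ATPase is the proton pump that acidifies lysosomes. Of its 19 genes tested, 0 were higher and 8 lower in Paneth cells of the libraries labelled IEC-KO (edgeR, background 19.8% lower). At an unadjusted p under 0.05, 2 were higher. With DESeq2 0 were higher and 4 lower, where 1487 of 12492 genes tested were lower. In other cells 3 were higher and 1 lower (edgeR, backgrounds 17.0% and 16.7%). With total UMIs as the scale 14 were higher and 0 lower in Paneth cells, where 8795 of 12492 genes tested were higher. Atp6v0c fell by 0.84 ± 0.25 and Atp6v0e2 by 0.54 ± 0.20 relative to the median of all genes, and both lay near 1 CPM. With DESeq2 neither was called (adjusted p = 0.059 and 0.15). Both calls were also lost with the narrower class limits, and that of Atp6v0e2 in thinned cells. Without fl/fl replicate 2 the value of Atp6v0c was -0.37 and not called, and neither was Atp6v0e2 without fl/fl replicate 1 (-0.43) or IEC-KO replicate 1 (-0.30). In other cells Atp6v1e1 (0.21 ± 0.06) and Atp6ap1 (0.20 ± 0.08) were higher and Atp6v1a (-0.34 ± 0.07) was lower. The calls of Atp6v1e1 and Atp6ap1 were lost in thinned cells. The call of Atp6v1e1 was lost without fl/fl replicate 1 (0.26) or fl/fl replicate 2 (0.15), and that of Atp6ap1 with DESeq2 (adjusted p = 0.19), without either of these (0.28 and 0.11) or IEC-KO replicate 2 (0.12). The effect was smaller in Paneth cells than in other cells for 8 of the 19 and larger for 1, against backgrounds of 11.2% and 11.0% (edgeR). With DESeq2 it was smaller for 3 and larger for 0, where it was smaller for 411 and larger for 455 of 13039 genes tested.

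Of 14 further membrane genes tested, 2 were higher and 2 lower in Paneth cells and 2 higher and 1 lower in other cells, below the backgrounds of 20.2% and 19.8% and of 17.0% and 16.7%. Cd63, a tetraspanin of late endosomes, rose in both (0.62 ± 0.08 and 0.63 ± 0.06), and so did Laptm4b (0.27 ± 0.07 and 0.25 ± 0.07). The channel Tpcn1 was lower in both (-0.49 ± 0.14 and -0.29 ± 0.11) and Cln3 in Paneth cells (-0.40 ± 0.12), and with total UMIs as the scale both turned positive in Paneth cells (0.12 and 0.23). Of 9 genes for the sorting of lysosomal enzymes, 1 was higher and 1 lower in Paneth cells, and 2 higher and 0 lower in other cells (edgeR). The backgrounds were again 20.2% and 19.8%, and 17.0% and 16.7%. Gnptg, a subunit of the enzyme that makes the mannose 6-phosphate tag, was higher in both classes (0.73 ± 0.09 and 0.80 ± 0.08). Sort1 was higher in other cells (0.21 ± 0.07), and the adaptor Gga2 was lower in Paneth cells (-0.47 ± 0.10, but 0.15 with total UMIs). Calls lost without 1 library were those of Laptm4b in Paneth cells (0.22 without fl/fl replicate 2) and in other cells (0.24 without either fl/fl replicate), Cln3 (-0.22 without IEC-KO replicate 2), Tpcn1 in other cells (-0.11 without fl/fl replicate 1 and -0.27 without IEC-KO replicate 2) and Sort1 (0.21 and 0.20 without the fl/fl replicates and 0.18 without IEC-KO replicate 2). With DESeq2 those of Laptm4b, Tpcn1, Cln3 and Sort1 were lost in each class in which they were called. In thinned cells these calls were lost as well, as were those of Gnptg and Gga2 in Paneth cells. With the narrower class limits those of Laptm4b, Tpcn1 and Cln3 in Paneth cells and of Tpcn1 and Sort1 in other cells were lost.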

How the data were processed

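Single-cell RNA sequencing (10x 3′ kit, version 2) was done by the authors on sorted crypt cells of 4 libraries. The deposited files hold raw UMI counts of 27998 genes for called cells. The submitters' processing notes name Cell Ranger 2.1.1 and mm10, and how strand was used is not given in the sources used here. All deposited cells were kept, since each had at least 200 genes. The study compared cells as replicates, whereas here counts were summed per library and cell class, because cells of a library are not replicates. Total counts per library are given above, and the number of libraries (2 a genotype) limits the precision.

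Sums were fitted with edgeR 4.0.16 (filterByExpr, TMM, quasi-likelihood F test, R 4.3.3), one fit per class for the genotype effect and one fit of all 8 sums with library as a block for class effects and their difference. Adjusted p-values are Benjamini-Hochberg over all genes tested, 2-sided, with a threshold of 0.05, and a standard error is the log2 difference over the root of F. In simulated data with 200 changed genes the Paneth cell fit recovered 98% of changes of 1 and 100% of changes of 2 (log2). The test of the difference recovered 69% and 100%. The changed genes were well counted and as many rose as fell, and libraries of a class otherwise had the same composition. Smaller changes, such as most of those called here, were not simulated.

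Alternatives were plain library size, library size without alpha-defensin UMIs, DESeq2 1.42.0, no filter, cells thinned to 3500 UMIs, cells with at least 10000 UMIs, the highest doublet scores left out (2.58% to 8.01% of cells), narrower class limits (40% to 60% and under 10%), goblet gene splits, each library left out and a replicate block. Doublets stayed in otherwise. Same-numbered libraries did not deviate together (correlations of 0.034 in Paneth and 0.051 in other cells), so the replicate numbers were not used for pairing. UMI totals are not counted per transcript length, so levels were not compared between genes. Gene positions are from GENCODE M21 and promoters from RefSeq (GRCm38.p6). The members, the lists and the rule for naming genes (all 33 members; of each wider list the 2 largest rises and falls with libraries that do not overlap) were chosen with earlier results of these data known.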

Additional observations from a re-analysis of the deposited data

Results flagged for a closer look

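Map1lc3a, Map1lc3b, Gabarap, Atg7 and Ctsb drew attention because the test of the difference itself showed another genotype effect in Paneth cells than in other cells. The effect in Paneth cells minus that in other cells was -1.29 for Atg7, -0.38 for Map1lc3b, -0.28 for Map1lc3a and -0.19 for Gabarap, and 0.25 for Ctsb (log2, edgeR). Atg7 is the 1 gene of these for which the call held under all 14 alternatives. The difference of Map1lc3b was lost in thinned cells and turned under both plain library scalings, and those of Map1lc3a, Gabarap and Ctsb were also lost under further alternatives, among them DESeq2. With 2 libraries a genotype, no library could be tested as standing apart from its group.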

How the results depend on the processing

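The scale mattered most. With library size only, counts of members higher and lower were 32 and 1 for the genotype effect in Paneth cells, 5 and 5 in other cells, 0 and 33 for Paneth against other cells in fl/fl, 1 and 31 in IEC-KO, and 32 and 1 for the difference between classes, and all genes called numbered 9249 in Paneth cells, 12213 and 12004 in the class comparisons and 9617 for the difference. Library size without alpha-defensin UMIs gave 29 and 1, 5 and 4, 2 and 28, 5 and 20, and 30 and 1, with 8351, 10115 (IEC-KO class comparison) and 8732 genes called. Both scales shift all genes. Values that turned sign are listed here only if called in the main fit or in the alternative. With library size only and in Paneth cells they were Nbr1 0.51, Map1lc3b 0.61, Becn1 0.58, Tfeb 0.40, Lamp1 0.53, Gga2 0.15, Atp6v0e2 0.078, Optn 0.0023, Pik3r4 0.13, Tpcn1 0.12 and Cln3 0.23, and without alpha-defensin UMIs Nbr1 0.38, Map1lc3b 0.48, Becn1 0.45, Lamp1 0.40, Gga2 0.018 and Cln3 0.093. In the class comparisons they were Atg7 -0.23, Lamp2 -0.45 and Map1lc3a -0.73 in fl/fl and Atg7 -0.76 and Map1lc3a -0.25 in IEC-KO with library size only, and Map1lc3a -0.018 (fl/fl) and Atg7 -0.19 (IEC-KO) without alpha-defensin UMIs. For the difference between classes Map1lc3a gave 0.48 and 0.34, Map1lc3b 0.38 and 0.25, and Gabarap 0.57 and 0.43 on these 2 scales. Otherwise, listed by the same rule, the direction of Sort1 in other cells turned with goblet genes under 1% (-0.17) and from 5% (-0.040), and those of Atg14 (-0.39) and Laptm4b (-0.066) under 1%. Goblet genes from 1% gave 6 members higher and 2066 genes called, under 1% 0 and 206 (fewer cells), and from 5% 1 lower and 2562. DESeq2 called 3123 genes in Paneth cells, 2498 in other cells, 4652 (fl/fl) and 3297 (IEC-KO) between classes and 866 for the difference, with 0 and 0 members lower between classes and 0 higher and 2 lower for the difference. Thinned cells gave 5 members higher in Paneth cells, 0 (fl/fl) and 1 (IEC-KO) lower between classes and 0 higher and 1 lower for the difference, with 1926, 2358, 2978, 3416 and 706 genes called in that order of comparisons. Cells with at least 10000 UMIs gave 1 and 1 lower between classes and 0 higher and 7 lower for the difference. Narrower class limits gave 5 higher and 2 lower (Atg7 and Lamp1) in Paneth cells and 0 higher and 2 lower for the difference, with 2662, 4246 (IEC-KO class comparison) and 1104 genes called. Paneth cells from 20%, added after the data were seen, gave 2 lower, and no filter 1 lower in other cells. Left out in turn, single libraries gave 5 to 9 members higher and 1 to 2 lower in Paneth cells, 0 to 1 lower in other cells, 1 to 2 lower in either class comparison, and 0 to 1 higher and 2 to 4 lower for the difference, with 1769 to 2306 genes called there. With a replicate block 8 members were higher and 1 lower in Paneth cells and 12 higher and 1 lower in other cells, where the main count was 0 lower, and the block changed no other count of members by over 1.5 times. Beyond scale, the cause of these changes was not tested.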

Other observations

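Among the 2732 cells that lay between the class limits, with an alpha-defensin share of 20% to 30%, Lamp2 was at 67.8 and 78.4 CPM of the UMIs other than alpha-defensins in the fl/fl libraries and at 65.9 and 64.7 in those labelled IEC-KO. Sqstm1 was at 24.5 and 37.2 against 82.8 and 84.9 there, and Ctsl at 9.8 and 11.0 against 32.5 and 27.5, on 14 and 11 UMIs of Ctsl in the fl/fl libraries. Atg7 was at 21.7 and 34.2 against 21.3 and 19.0, on 31 and 34 UMIs in the fl/fl libraries, and the groups were not clearly apart. No test was run on these cells, which were 120 and 89 in the fl/fl libraries and 1305 and 1218 in those labelled IEC-KO.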
